A study of Arabidopsis thaliana with 69 samples.

Results

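Dexamethasone (DEX) changed a small set of transcripts in Arabidopsis thaliana seedlings that carried the vector without its transcription factor. The comparison used the 18 empty vector arrays of the series' 69: 9 arrays of DEX-treated cultures and 9 of cultures given the solvent DMSO, with 3 arrays of each treatment at 9, 12 and 24 h. Members were chosen by line, treatment and time alone. DEX against DMSO was fitted on these 18 arrays with time as a block. All plants were of ecotype Col-0. The empty vector line carried VP16-GR, and the other line of the series, which supplied the remaining 51 arrays, carried VND7-VP16-GR. The DEX cultures received 10 µM of the hormone. The labels' protocol is written for the VND7 construct and gives a 35S promoter, T3 seed and 6 days of growth in darkness in shaken liquid medium with sucrose. The labels do not say how many independent transgenic lines stand behind the empty vector arrays. Each array is labelled a biological replicate, and the labels do not say whether replicates came from separate seed batches. The p-values therefore measure the spread between these cultures.

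DEX is a synthetic mammalian glucocorticoid. Plants have no receptor of that family, and a protein fused to the steroid-binding part of the rat glucocorticoid receptor (GR) is held outside the nucleus until the steroid binds. VP16 is a strong transcriptional activation domain from a herpes virus. VND7 is a NAC transcription factor that switches plant cells to the fate of water-conducting xylem vessels. In such a system the factor brings the DNA-binding part, which a line with VP16-GR alone lacks. DEX-treated cultures of that line had both the steroid and VP16-GR bound by it. Effects of the steroid and of the VP16-GR protein cannot be told apart in these arrays.

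The measure was the log2 signal of each probe set on the ATH1 array, as deposited. Array medians ran from 5.53 to 5.58 in the DEX arrays and from 5.47 to 5.56 in the DMSO arrays. The lowest value on the arrays was 2.14, a floor that means no signal above background, and a value less than 0.3 above it is called at the floor here. Between 31.8% and 32.1% of the values of a DEX array and between 31.7% and 32.1% of those of a DMSO array lay there. Pairs of the 18 arrays correlated between 0.988 and 0.998 across probe sets. The files' labels name hypocotyl as the tissue, while the protocol describes whole cultures. The root hair expansin EXPA18 was above the floor, at a mean of 4.69 in DEX arrays and 4.63 in DMSO arrays. Its relative EXPA7 stood close to the floor, at 2.52 in DEX arrays and 2.53 in DMSO arrays. These were the 2 measured of 10 root hair genes listed. The 1 measured gene of root tip and root layers was at the floor in all these arrays. Which tissue was present was not tested.

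The strongest separation among the 18 arrays was by time, and the second was by DEX. The first principal component, with 33.28% of the variance, set the 24 h arrays apart from most arrays of 9 and 12 h. The second, with 12.95%, placed all 9 DEX arrays at 7.23 to 16.1 and all 9 DMSO arrays at -20.5 to -7.84. DMSO arrays of 12 h stood apart from the rest on the third component, which held 11.2% of the variance: replicate 3 lay at -33.1 and replicate 1 at 20.4. Gene list counts are given without either array where they moved.

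**Figure D1:**
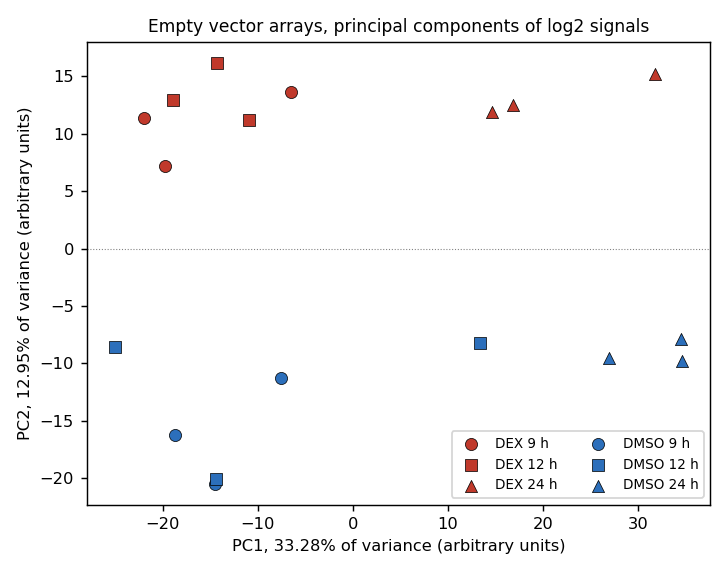
The first 2 principal components of the 18 empty vector arrays (DEX in red, DMSO in blue, symbol by time), in arbitrary units, with the share of variance on each axis. All DEX arrays lie above 0 on the second component and all DMSO arrays below it, and 1 DMSO array of 12 h sits at 13.4 on the first component, near the 24 h arrays.

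Of 22746 probe sets tested, 543 passed an adjusted p under 0.05, which is 2.39% (limma, Benjamini-Hochberg over all of them). Rises made up 394 (1.73%) and falls 149 (0.655%). Most changes were small: the median was 0.49 on the log2 scale among the rises and -0.44 among the falls, and 205 rises and 90 falls were under 0.5 in size. A log2 change of at least 1 was reached by 80 probe sets (0.352%), of which 74 rose (0.325%) and 6 fell (0.0264%). The direction was the same at all 3 times for each of the 394 rises and each of the 149 falls, on the arrays used to make the calls. The 9 DEX arrays all lay above the 9 DMSO arrays for 106 of the rises, against 107 (0.47%) of all probe sets, and all below them for 6 of the falls, against 6 (0.0264%) of all.

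These counts moved with single arrays and with scaling. Without replicate 1 of the 12 h DMSO arrays 870 probe sets passed, 487 up and 383 down, and without replicate 3 of that group 590 passed, 402 up and 188 down. Without that array and replicate 3 of the same group 784 passed, 437 up and 347 down. Centring each array on its median gave 652, of which 359 rose and 293 fell. Fewer passed in a fit of all 69 arrays, at 122, and without the time block, at 326. With the 9 h arrays left out 164 passed, 155 up and 9 down, and with the 24 h arrays left out 182 passed, 169 up and 13 down.

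**Figure D2:**
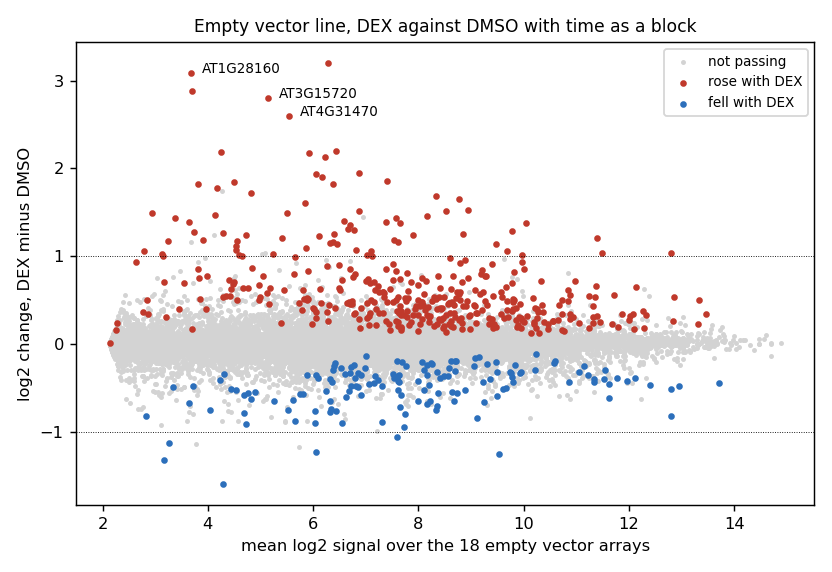
Log2 change with DEX in the empty vector line (vertical axis) against the mean log2 signal over the 18 arrays (horizontal axis), 1 point per probe set, with those that rose in red, those that fell in blue and the rest in grey. The dotted lines mark a change of 1 in either direction, which 74 rises and 6 falls reached.

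AT1G28160, which encodes a transcription factor with an AP2/ERF DNA-binding domain, had the largest rise among genes with a name. Its log2 signal was 4.87, 4.31 and 4.70 after 9 h of DEX, 5.34, 5.65 and 5.38 after 12 h of DEX and finally 5.40, 5.48 and 5.89 after 24 h of DEX. In all 9 DMSO arrays it was 2.14, the floor. The change of 3.09 ± 0.13 (SE, 9 arrays a side; adjusted p = 3.3e-09) is therefore measured from the floor, and the fold may be understated. In the VND7 line the gene stayed at the floor in all 51 arrays, DEX and DMSO.

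AT3G15720 encodes a member of the polygalacturonase family, enzymes that cut the pectin backbone of the cell wall. Its log2 signal was 6.58, 6.09 and 6.42 after 9 h of DEX, 6.66, 6.72 and 6.54 after 12 h of DEX and finally 6.78, 6.81 and 6.24 after 24 h of DEX. The DMSO arrays had 3.83, 3.77 and 3.57 after 9 h, 3.97, 3.26 and 4.03 after 12 h and finally 3.995, 3.21 and 3.97 after 24 h. Every DEX array was above every DMSO array, by a mean of 2.81 ± 0.14 (SE; adjusted p = 1.6e-08). In the VND7 line the gene had 2.14 to 2.57 in the 24 DEX arrays and 2.20 to 4.01 in the 27 DMSO arrays.

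AT4G31470 encodes a small secreted protein of the CAP family, to which the defence protein PR-1 belongs. Its log2 signal was 7.25, 6.86 and 7.18 after 9 h of DEX, 7.02, 7.17 and 7.18 after 12 h of DEX and finally 6.13, 6.89 and 5.87 after 24 h of DEX. The DMSO arrays had 4.48, 4.76 and 4.21 after 9 h, 4.23, 4.20 and 4.08 after 12 h and finally 3.96, 4.23 and 4.02 after 24 h. The groups did not overlap, and the mean change was 2.60 ± 0.14 (SE; adjusted p = 4.7e-08). The VND7 arrays lay between 3.67 and 4.95 with DEX and between 3.58 and 5.17 with DMSO. Many VND7 arrays, the DEX arrays of 12 h among them, held 1 repeated value of 4.08. Replicate 3 of the 12 h DMSO arrays of the empty vector line held it too. The baseline may therefore lie near a repeated low value of the probe set itself.

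**Figure D3:**
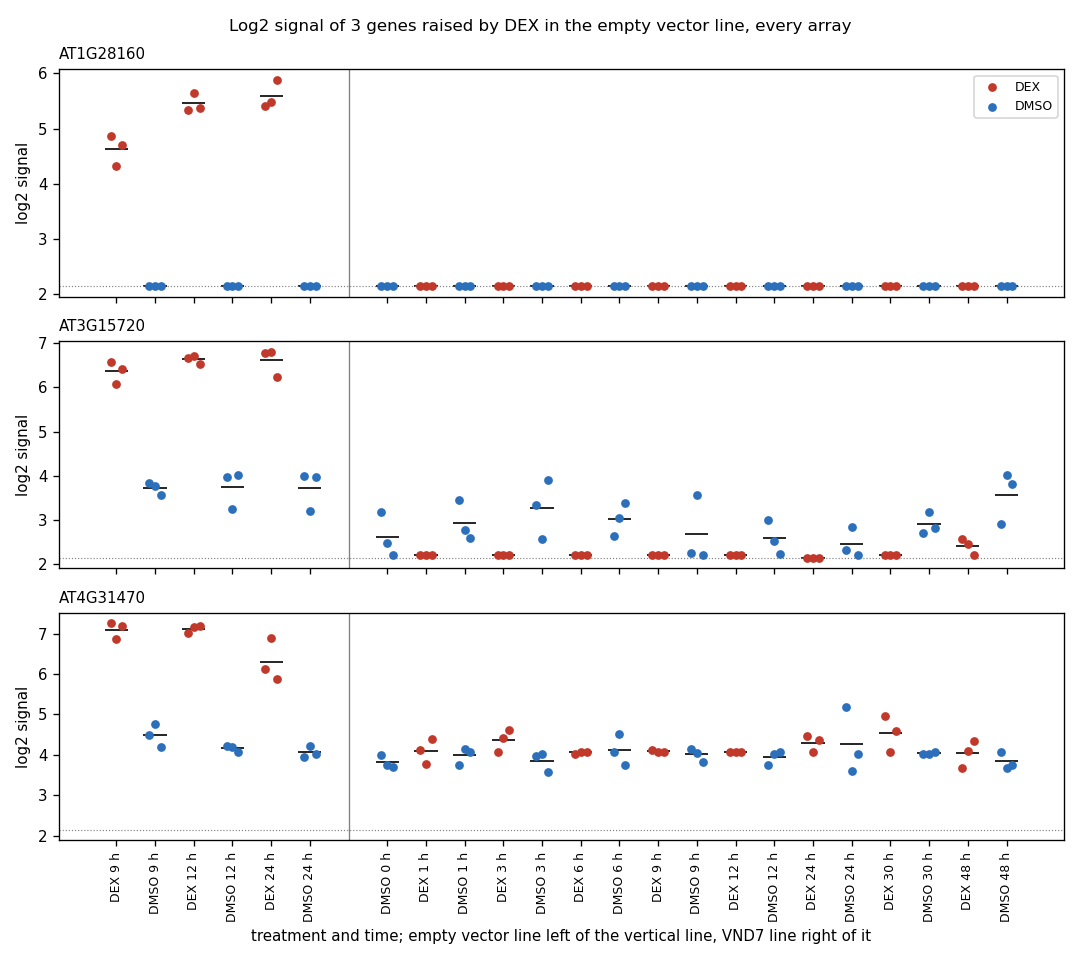
Log2 signal of AT1G28160, AT3G15720 and AT4G31470 on all 69 arrays, by treatment and time, with the empty vector line left of the vertical line and the VND7 line right of it (DEX red, DMSO blue, bars at group means, dotted line at the floor of 2.14). The DEX arrays of the empty vector line stand above all other arrays for each gene.

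No other CAP or polygalacturonase family gene measured passed. For the family of AT1G28160 only 4 other ERF and DREB factors were counted, 3 of them at the floor in all groups, and none passed. Of 19 CAP family genes measured (22 listed), AT4G31470 was the 1 that rose, none fell, 10 were at the floor in all groups, and the median change was 0.00. Of 28 polygalacturonase family genes measured (42 listed), AT3G15720 was the 1 that rose, none fell, and 21 were at the floor in all groups. Over all 13355 named genes 192 rose (1.44%), 72 fell (0.539%), and the median change was 0.00. Without replicate 1 of the 12 h DMSO arrays 236 rose and 175 fell.

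Wall and sugar-modifying enzymes were among the other large rises. AT1G19900, a glyoxal oxidase-like enzyme that makes hydrogen peroxide, ranged over 6.99, 7.93 and 8.80 (lowest, median and highest) in DEX arrays and 4.81, 6.08 and 6.76 in DMSO arrays, a change of 1.95 ± 0.28 (SE; adjusted p = 0.00099). Both probe sets of AT5G44820, which encodes a nucleotide-sugar transferase, rose, by 1.82 ± 0.19 and 1.43 ± 0.13. AT3G50570, a hydroxyproline-rich glycoprotein, rose by 1.72 ± 0.17. For that gene 6 of the 9 DMSO arrays held the same value of 3.91, also held by 33 of the 51 VND7 arrays, so a repeated low value of the probe set itself stands in for the baseline. AT1G14890, a member of the invertase and pectin methylesterase inhibitor family, was already abundant and ranged over 11.6, 12.1 and 12.4 in DEX arrays and 10.5, 10.8 and 11.1 in DMSO arrays.

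The trichome birefringence-like (TBL) family includes enzymes that add acetyl groups to wall polysaccharides. Of 23 members measured, 3 rose (13%), against 1.44% of all named genes, none fell and the median was 0.00. With arrays centred on their medians 1 fell. TBL38 rose by 1.38 (adjusted p = 9.1e-05), TBL41 by 1.14 and TBL45 by 0.50. For TBL41 the DEX arrays ran from 6.54 to 7.49 and the DMSO arrays from 5.49 to 6.53, with no overlap. Both xyloglucan-modifying genes that passed among 10 measured (20%) also rose, XTH32 by 0.50 and EXGT-A3 by 0.28. None of 19 expansins passed (limma, 2 at an unadjusted p under 0.05), while 1 fell without replicate 3 of the 12 h DMSO arrays.

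Among proteolysis and regulatory genes was AT3G43960, a papain-like cysteine protease. It had 10.1, 9.81 and 9.62 after 9 h of DEX, 9.88, 9.69 and 9.60 after 12 h of DEX and finally 9.61, 9.62 and 9.39 after 24 h of DEX. The DMSO arrays had 8.21, 8.34 and 8.15 after 9 h, 8.21, 8.17 and 8.32 after 12 h and finally 7.96, 8.10 and 8.10 after 24 h. The change of 1.53 ± 0.06 (SE) had the smallest adjusted p of all probe sets with 1 gene, 2.2e-09. AT1G72500, which resembles the heavy chain of mammalian inter-alpha-trypsin inhibitor, rose nearly as evenly, by 1.45 ± 0.06, with 8.60 to 9.04 in DEX arrays and 7.30 to 7.67 in DMSO arrays. AT3G05640, a protein phosphatase of the PP2C class, rose by 1.90 ± 0.14. AT3G50560, a short-chain dehydrogenase, rose by 1.94 ± 0.22, and AT1G14780, whose product has a membrane-attack-complex and perforin domain, by 1.44 ± 0.10. AT1G78460, a haem-binding protein of the SOUL family, rose by 1.49 ± 0.23. AT3G02500 rose by 1.49 ± 0.11, AT4G14650 by 2.19 ± 0.21 and AT2G23680, of the WCOR413 cold-acclimation membrane protein family, by 1.23 ± 0.08. For AT3G02500 7 of the 9 DMSO arrays held the floor value of 2.14, so its change is measured from the floor. The groups of AT4G14650 overlapped, with a lowest DEX value of 4.17 and a highest DMSO value of 4.62. WLIM2a, an actin-bundling LIM protein, rose by 0.70 ± 0.05.

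Transporters of the NPF family, which carry nitrate, glucosinolates and other small molecules, included some that rose. Of 11 members measured 4 rose (36.4%), against 1.44% of all named genes, none fell and 5 were at the floor throughout. GTR1, a glucosinolate importer, ranged over 6.59, 7.01 and 7.29 in DEX arrays and 5.28, 5.84 and 6.10 in DMSO arrays, a change of 1.16 (adjusted p = 3.8e-05). Its close relative GTR2 changed by 0.30 with overlapping groups (adjusted p = 0.028). AT1G68570 rose by 1.07 and AT2G26690 by 0.36. The TBL and NPF lists were drawn up after the values were seen, and their counts are a description.

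Enzymes that act on hormones and other small molecules were counted by family, against 1.44% rises and 0.539% falls over all named genes. Among 24 cytochrome P450 genes, CYP84A4, an enzyme of arabidopyrone synthesis, was the 1 that passed (4.17%), with a rise of 1.24 (adjusted p = 3.0e-05). Most of these 24 were CYP71B genes, and 13 were at the floor in all groups. Among 14 glutathione transferases GSTU27 was the 1 that passed (7.14%), with a rise of 0.56. Among 51 UGT glycosyltransferases none rose and 2 fell (3.92%), UGT76C2, which inactivates cytokinin by adding glucose, by 0.44 and UGT76E2 by 0.35. Without replicate 1 of the 12 h DMSO arrays 1 UGT gene rose and 3 fell, and 1 glutathione transferase rose and 1 fell. GH3.17, which conjugates auxin to an amino acid, rose by 0.59 and was the 1 that passed of 5 GH3 genes, with overlapping groups.

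The largest fall was that of AT2G29290, a tropinone reductase-like dehydrogenase. Its log2 signal ranged over 2.60, 3.57 and 4.96 in DEX arrays and 3.38, 5.11 and 6.18 in DMSO arrays, so the groups overlapped, with a change of -1.59 ± 0.35 (SE; adjusted p = 0.022). The unnamed probe sets 259161_at and 252130_at changed by -1.25 and -1.23. CC-type glutaredoxins, plant-specific small redox proteins, were also among the named falls. AT1G06830 lay at 2.34 to 2.6102 in DEX arrays and at 2.6107 to 4.54 in DMSO arrays, so the groups all but touched. For this gene 5 of the 9 DEX arrays held 1 repeated low value of 2.50. It fell by 1.32 on the log2 scale (adjusted p = 0.0037). AT4G15660 changed by -1.13 (adjusted p = 0.047) and AT5G18600 by -0.90 (adjusted p = 0.0020), both with overlapping groups. Of 17 glutaredoxins of this class measured, 3 fell (17.6%), against 0.539% of all named genes, none rose and the median was -0.03. Without replicate 3 of the 12 h DMSO arrays 2 fell, and without replicate 1 of that group 4 fell and 1 rose. With each array centred on its median 4 fell. This list, too, was drawn up after the values were seen. Over all named genes 72 fell as deposited, 99 without that replicate 3, 175 without that replicate 1 and 128 with arrays centred.

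PSAN, a subunit of photosystem I, was among the 15 largest falls. It had 7.56, 6.85 and 7.51 after 9 h of DEX, 7.63, 7.13 and 7.20 after 12 h of DEX and finally 9.63, 9.22 and 9.29 after 24 h of DEX. The DMSO arrays had 8.21, 8.10 and 7.84 after 9 h, 7.43, 8.22 and 8.59 after 12 h and finally 10.1, 9.92 and 10.00 after 24 h. Within each time the DEX arrays were lower, except that DEX replicate 1 of 12 h was above DMSO replicate 1 of 12 h, and the change was -0.71 ± 0.14 (SE; adjusted p = 0.013). Of 7 nuclear photosystem and NDH subunits measured 2 fell (28.6%), PSAN and NdhN, a gene of the NDH complex, by 0.63. The list was drawn up after the values were seen. All 7 had a change below 0, from -0.84 to -0.20, with a median of -0.63. With arrays centred on their medians 4 of the 7 fell, with quantile normalization 2, and without replicate 1 of the 12 h DMSO arrays 5. Over all named genes 72 fell as deposited (0.539%), 128 with arrays centred, 83 with quantile normalization and 175 without that replicate 1.

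Of 3 LHCB4 light-harvesting genes LHCB4.2 fell by 0.62 (adjusted p = 0.025), while LHCB4.1 changed by -0.39 (adjusted p = 0.084) and LHCB4.3 by -0.18 (adjusted p = 0.77). With arrays centred on their medians, or without replicate 1 of the 12 h DMSO arrays, 2 of the 3 fell. Over all named genes 72 fell as deposited (0.539%), 128 with arrays centred and 175 without that replicate 1. HPR, the peroxisomal hydroxypyruvate reductase of photorespiration, ranged over 6.71, 7.14 and 8.43 in DEX arrays and 7.04, 8.02 and 9.09 in DMSO arrays, a change of -0.80 ± 0.15 (SE; adjusted p = 0.0070). LrgB, a transporter of the plastid envelope, changed by -0.77 (adjusted p = 0.030) and AT5G52780, related to a photosystem assembly factor, by -0.77 (adjusted p = 0.0497). None of 4 green tissue genes passed (limma, 2 at an unadjusted p under 0.05): PORB, which reduces protochlorophyllide, changed by 0.10, RCA, the activase of Rubisco, by -0.12 and PRK by -0.44. With arrays centred 1 of the 4 fell, and without replicate 1 of the 12 h DMSO arrays 2 did. In these bulk samples fewer cells of a type and less RNA per cell cannot be told apart. AT5G52780, AT4G15660, LrgB and AT3G22150, a pentatricopeptide repeat protein, were also the named falls that most often lost their call under other settings.

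Among the other named falls, AT5G58570 lay at 3.89 to 4.64 in DEX arrays and 4.68 to 5.69 in DMSO arrays, without overlap, and fell by 0.92. AT5G60760 changed by -0.90, AT3G22150 by -0.88, AT3G06840 by -0.79, AT3G22210 by -0.77, AT5G58660, an oxygenase of the 2-oxoglutarate class, by -0.75 and AT4G21870, a small heat-shock-like protein, by -0.72, each with adjusted p under 0.05 and with overlapping groups. Small falls with a low p were those of AT3G47010, a family 3 glycosyl hydrolase, at -0.39, AT1G58150 at -0.57, AT1G49650 at -0.48 and AT1G75180 at -0.36.

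**Figure D4:**
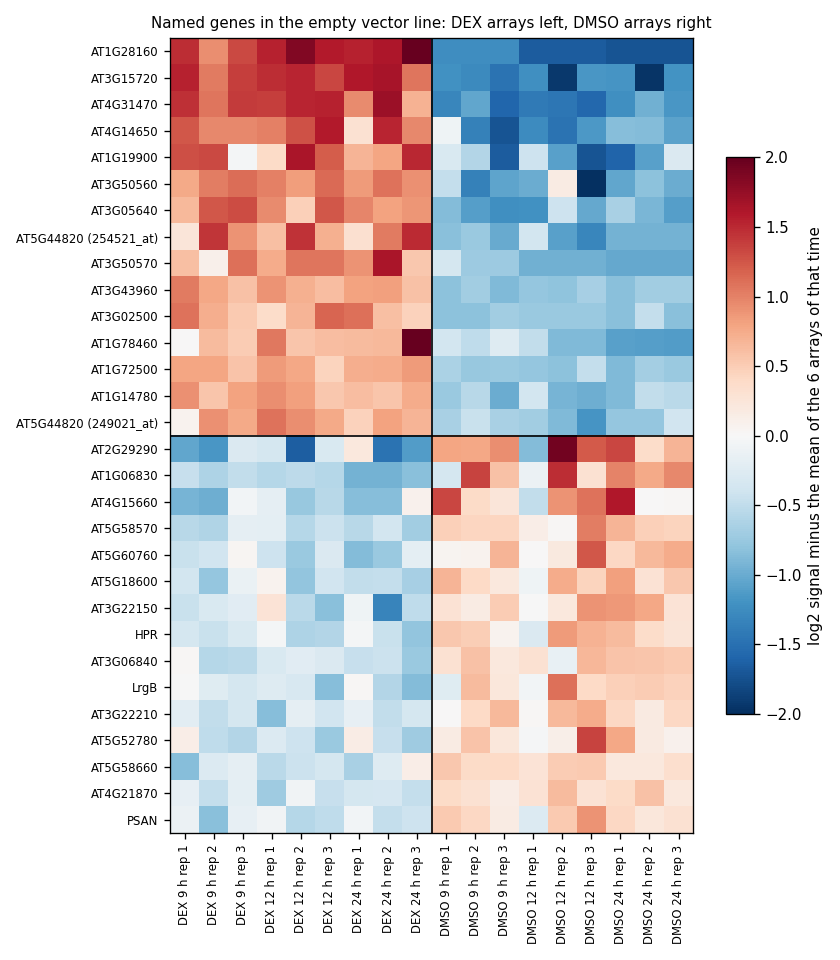
The 15 largest rises (above the line) and the 15 largest falls (below it) among probe sets of 1 gene, as log2 signal minus the mean of the 6 arrays of that time, DEX arrays left and DMSO arrays right. Rises lie above the mean of their time in nearly all DEX arrays, and among the falls replicate 1 of the 12 h DMSO arrays is close to the DEX arrays for several genes, such as PSAN at 7.43.

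Among rises 193 probe sets named 1 gene and 201 had several names or none, and among falls 72 named 1 gene and 77 had several or none. That made 278 of the 543 calls (51.2%), against 9233 of all 22746 probe sets (40.6%). The largest change of all belonged to the unnamed probe set 247718_at, at 6.79, 8.23 and 8.61 (lowest, median and highest) in DEX arrays and 4.32, 4.59 and 5.85 in DMSO arrays, a change of 3.20 ± 0.30 (SE; adjusted p = 1.8e-05). Another unnamed probe set, 258983_at, changed by 2.88 ± 0.17.

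DEX against DMSO was also tested at each time, with the spread taken from all 18 arrays. At 9 h 81 probe sets passed (0.356%), 76 up (0.334%) and 5 down (0.022%). At 12 h 97 passed (0.426%), 96 up (0.422%) and 1 down (0.0044%). At 24 h 76 passed (0.334%), 67 up (0.295%) and 9 down (0.0396%). Of the rises, 40 passed at all 3 times, 32 at 2 times and 55 at 1 time, while the 15 falls passed at 1 time each. With the 6 arrays of a time alone 13 passed at 9 h, 8 at 12 h and 8 at 24 h. In a fit of all 69 arrays 31, 29 and 45 passed at those times. The 12 h count was 160 without replicate 1 of the 12 h DMSO arrays and 148 without replicate 3. The 24 h count was 114 without that replicate 3. The 12 h count was 62, 60, 42 and 49 without DMSO replicate 2 and DEX replicates 1, 2 and 3 of 12 h. The 9 h count was 39 without DMSO replicate 2, 52 without DEX replicate 1 and 47 without DEX replicate 3 of that time, and it was 116 without DMSO replicate 3 of 12 h.

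A direct test of whether the DEX effect differed between times passed for 0 probe sets (0%; limma F test, lowest adjusted p = 0.081), with 474 at an unadjusted p under 0.05. Leaving out single arrays gave 0 to 9, and 6 passed without replicate 3 of the 12 h DMSO arrays. AT1G28160 changed by 2.49 at 9 h, 3.32 at 12 h and 3.45 at 24 h, and AT1G78460 by 0.76, 1.49 and 2.21, both without passing that test. Time itself moved more genes than DEX on the same arrays: 1873 probe sets (8.23%) differed between times whatever the treatment, and 1218 did without replicate 1 of the 24 h DEX arrays.

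In the empty vector line none of 6 xylem and secondary wall genes measured (36 listed) passed with DEX (limma, 0 at an unadjusted p under 0.05). Their changes lay between -0.07 and 0.09, and 1 was at the floor in all groups. GUT2, a xylan synthesis glycosyltransferase, averaged 6.49 in DEX arrays and 6.46 in DMSO arrays without VND7. In VND7 plants at 9 h it had 13.2, 13.2 and 13.4 with DEX and 6.87, 6.73 and 6.99 with DMSO, and all 6 genes rose there, with a median of 6.70. Of 29 genes raised in the VND7 line 1 (3.45%) rose in the empty vector line, against 1.44% of all named genes. It was AT1G09440, a protein kinase, by 0.34 against 8.57 in the VND7 line at 9 h. Of 24 genes lowered in the VND7 line 2 (8.33%) fell in the empty vector line, against 0.539% of all named genes. They were AT1G74470, the geranylgeranyl reductase of chlorophyll synthesis, by 0.51 and the plastid ribosomal protein gene AT4G01310 by 0.43. Without replicate 3, and likewise without replicate 1, of the 12 h DMSO arrays 3 of the 24 fell. These 2 lists were chosen on the VND7 arrays of the same series. The xylem list shares genes with the raised list, GUT2 among them, so the rise of those in the VND7 line is no separate result. Of 7 reference genes none passed (limma, 1 at an unadjusted p under 0.05), with changes of -0.04 to 0.13.

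The lines were compared at 9 h first, because some VND7 arrays of 12 and 24 h stood apart. GUT2 was at 9.05 and 8.90 in the VND7 libraries labelled DEX 12 h replicates 1 and 3, against 13.2 in replicate 2, and at 8.61 in the library labelled DEX 24 h replicate 2, against 12.4 and 12.5 in the other two. It was at 10.9 in the library labelled DMSO 24 h replicate 1, against 6.49 and 6.47. At 9 h, in a fit of the 36 arrays of the shared times, 46.8% of all probe sets passed in the VND7 line, 22% up and 24.7% down.

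Of the 394 probe sets that rose with DEX in the empty vector line, 87 (22.1%) rose in the VND7 line at 9 h, 161 (40.9%) fell and 146 did not pass. Of the 149 that fell, 15 (10.1%) rose there, 90 (60.4%) fell and 44 did not pass. The shares of all probe sets at 9 h, 22% up and 24.7% down, include probe sets at the floor in every empty vector group. Over the 15841 that were not, 24% rose in the VND7 line at 9 h and 34.9% fell. The lines share no arrays. Medians of the VND7 arrays at 9 h were 4.91, 4.95 and 4.90 with DEX and 5.47, 5.48 and 5.46 with DMSO. The VND7 shares and gene changes at 9 h are as deposited and were not recomputed with arrays centred. With the 12 arrays of 9 h alone, where 22.4% of all rose and 27.3% fell, 105 of the rises went up and 179 down, and 19 of the falls went up and 107 down.

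Named genes showed several of these patterns. AT3G43960 changed by 1.53 in the empty vector line and by -2.70 in the VND7 line at 9 h, where its level over all times ran from 3.13 to 8.03 with DEX. AT1G72500 changed by 1.45 in the empty vector line and by -2.65 in the VND7 line. AT2G26690, GTR1 and TBL41 rose in the empty vector line and had -6.54, -1.42 and -2.17 in the VND7 line. AT1G14890 rose in both, by 1.21 in the empty vector line and 2.14 in the VND7 line, and WLIM2a by 0.70 and 1.53. PSAN, HPR and LHCB4.2 fell in the empty vector line and had -4.30, -4.87 and -4.94 in the VND7 line. AT1G49650 and AT1G75180 changed by -0.48 and -0.36 in the empty vector line and by 2.18 and 1.18 in the VND7 line at 9 h.

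**Figure D5:**
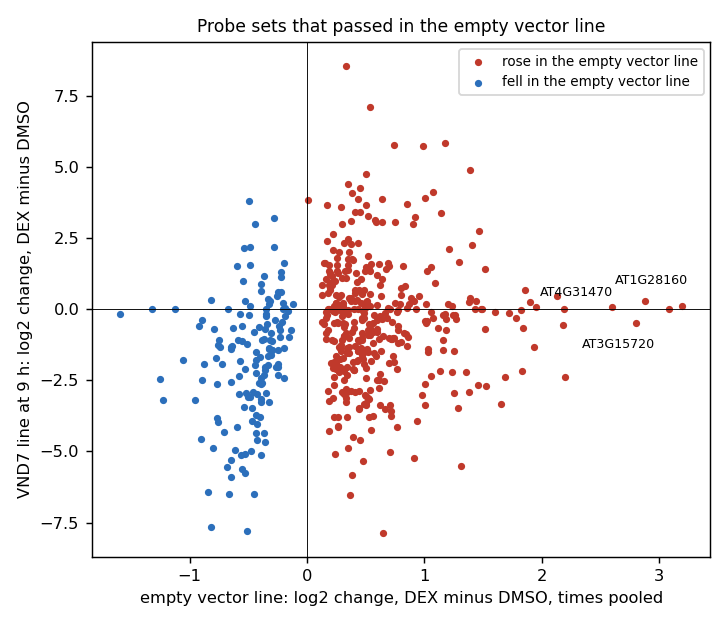
Log2 change with DEX in the empty vector line, times pooled (horizontal axis), against that in the VND7 line at 9 h (vertical axis), for the 543 probe sets that passed in the empty vector line (rises red, falls blue). Many rises lie below 0 on the vertical axis, and AT1G28160, AT3G15720 and AT4G31470 lie close to it.

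The difference of the DEX effect between the lines, averaged over 9, 12 and 24 h, passed for 9142 probe sets (40.2%). Among them were 298 of the 394 rises and 88 of the 149 falls of the empty vector line. Those rises and falls were called on the same empty vector arrays, so the 40.2% is not a like background for them. Centring each array shifted the median of this difference by -0.44 on the log2 scale and made 16689 pass, 3453 above 0 and 13236 below. The difference was 3.09 for AT1G28160, 3.20 for AT3G15720 and 2.52 for AT4G31470 as deposited. These were 3.09, 3.22 and 2.33, and 11943 probe sets passed, when the VND7 libraries labelled DMSO 24 h replicate 1 and DEX 24 h replicate 2 were left out together.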

How the data were processed

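The 18 empty vector arrays and, for comparison, the VND7 arrays were read from 1 deposited table. Its values are log2 signals per probe set of Affymetrix ATH1 arrays that the authors made with GCRMA, per the submitters' processing notes (version not given in the sources used here). No scaling was added. Samples were grouped by the labels. Of 22810 probe sets 64 controls were left out, 13513 named 1 gene, 503 several and 8730 none, and 13436 of the first matched the RefSeq gene table by gene ID. For gene lists 1 probe set stood for each gene.

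limma 3.58.1 in R 4.3.3 fitted DEX with time as a block (14 residual degrees of freedom), its prior variance following mean signal. The groups of 1 time used 1 mean per group on the 18 arrays, and the comparison of the lines 36 arrays. A probe set passed at an adjusted p under 0.05, two-sided. The number of arrays limits the precision.

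Named genes are the 3 given first, which were the markers of this comparison and its largest rises among named genes. Others are the 15 largest rises and falls that passed, and the 10 rises and falls of smallest p. So are the 3 of smallest p in each direction at each time and by time, and list members that passed or changed most. A few of those were left out for space. The members, the 45 lists and 4 later ones were chosen with earlier results of these data known. Alternatives covered scaling, dim probe sets, array weights, the prior, the blocks, the arrays fitted and leaving out each array. The fit without both odd DMSO arrays of 12 h, the rescaled list counts, those without replicate 3 or 1 of the 12 h DMSO arrays, and the 9 h alternatives between the lines were chosen after seeing the data.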

Additional observations from a re-analysis of the deposited data

Results flagged for a closer look

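The DEX effect, averaged over 9, 12 and 24 h, differed between the empty vector line and the VND7 line for 20 of the 30 probe sets named first (limma, adjusted p under 0.05 for the difference itself, which passed for 40.2% of all probe sets). The values here are the empty vector line's log2 change minus that of the VND7 line. The 30 were chosen for the size of their change on the same empty vector arrays, so the 40.2% is not a like background for them.

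Of the 15 rises 13 differed, all with the larger value in the empty vector line, a direction that choosing the largest rises there favoured. The differences were 4.05 for AT3G43960 and 3.95 for AT1G72500, which changed by -2.53 and -2.50 in the VND7 line, and 3.14 for AT3G50560, which changed by -1.20 there. AT3G15720 had 3.20, AT1G28160 3.09, AT4G31470 2.52 and AT4G14650 2.15. For AT5G44820 the probe sets had 1.997 and 1.63. AT3G50570 had 1.81, AT3G02500 1.49, AT1G78460 1.49 and AT1G19900 1.35. In the VND7 line AT1G28160 and AT3G02500 were at the floor in all 51 arrays and AT1G78460 at 1 repeated low value in 48, so their change there was 0.00.

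Of the 15 falls 7 differed. The fall was larger in the empty vector line for AT1G06830, with a difference of -1.27, AT2G29290 with -1.25 and AT4G15660 with -1.12. It was smaller than in the VND7 line for HPR, with 2.56, AT3G22210 with 2.13, AT5G18600 with 1.18 and AT4G21870 with 1.12. All 20 differences passed again, with the same sign, and 25 of the 30 passed, 14 of the 15 rises and 11 of the 15 falls, without the VND7 libraries labelled DMSO 24 h replicate 1 and DEX 24 h replicate 2. The others that passed then were AT1G14780 with 0.61, AT3G22150 with 1.16, LrgB with 1.05, AT5G52780 with 2.24 and PSAN with 2.76 (adjusted p = 0.00011). With those libraries in, PSAN had 1.62 (adjusted p = 0.20) and AT1G14780 1.31 (adjusted p = 0.051). The VND7 libraries labelled DEX 12 h replicates 1 and 3, with GUT2 at 9.05 and 8.90 against 13.2 in replicate 2, were kept throughout.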

How the results depend on the processing

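The 3 genes given first kept their call in all settings run, with ranges of 2.90 to 3.38 for AT1G28160, 2.73 to 2.89 for AT3G15720 and 2.42 to 2.79 for AT4G31470. They were the markers of this comparison and its largest rises among named genes on these same arrays, so a kept call is no separate support. Counts moved more. A fit of all 69 arrays gave 122 for the pooled comparison, 50 with the fold minimum, 31, 29 and 45 at 9, 12 and 24 h and 7 for the difference by time. The pooled count was 326 without the time block, 164 without the 9 h arrays (155 up, 9 down) and 182 without the 24 h arrays (169 up, 13 down). It was 737 with array weights (60.5% up) and 743 without dim probe sets (63.3% up), against 72.6% up as reported. Leaving out 1 array gave 388 to 870 pooled, 72 to 86 with the fold minimum, 39 to 116 at 9 h, 42 to 160 at 12 h, 57 to 114 at 24 h, 0 to 9 by time, 1218 to 2759 for time and 8635 to 10640 between the lines. The 6 arrays of 1 time alone gave 13 at 9 h, 8 at 12 h and 8 at 24 h, with fewer arrays for the spread, and a fold minimum 40, 53 and 40. Centring gave 1 by time and 16689 between the lines. Replicate numbers showed no sign of pairing the samples: same-numbered arrays correlated between -0.20 and 0.12 in their deviations, and 1 of 9 pairs was over 0.1. With 3 arrays a group, this cannot show that the samples were unpaired. With a replicate block of 9 pairs 322 passed, with one of 3 numbers 448, and 53 at 9 h. For the 30 named probe sets 933 values were recomputed: 825 kept the call, 108 lost it and none reversed. Beyond what construction shows, the cause was not tested. Values near the floor limit what low genes can show.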

Other observations

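Other genes that passed in the empty vector line, chosen after their values were seen, came from hormone, transport and stress biology. AZG1, a purine and cytokinin transporter, ranged over 5.41, 6.02 and 6.31 (lowest, median and highest log2 signal) in DEX arrays and 4.30, 4.86 and 5.11 in DMSO arrays, a change of 1.20 ± 0.12 (SE). HAT2, a homeodomain factor induced by auxin, lay at 8.65 to 9.47 in DEX arrays and 8.00 to 8.60 in DMSO arrays, a change of 0.77 ± 0.07, and in the VND7 line at 9 h it changed by -4.15. PUB19, a ubiquitin ligase of drought responses, rose by 1.03 ± 0.12 in the empty vector line and by 1.33 in the VND7 line at 9 h. OLEO3, an oil body protein of seeds, rose by 0.94 ± 0.15 with overlapping groups. STOMAGEN, a secreted peptide that promotes stomata, changed by -0.65 ± 0.14 in the empty vector line, with 7.38 to 8.09 in DEX arrays and 7.67 to 8.91 in DMSO arrays, and by -5.32 in the VND7 line at 9 h.

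A call can also rest on values at the floor. AT1G54020 passed with a change of 0.005 while all groups lay at the floor, at 2.15 in DEX arrays and 2.14 in DMSO arrays, and it was the 1 rise of that kind.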
